A study of Homo sapiens with 12 samples.

Results

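The 8 genes described here make up the cell's main zinc buffering and export circuit. They are the 6 metallothionein genes MT2A, MT1X, MT1E, MT1F, MT1G and MT1M, the transcription factor MTF1 and the zinc exporter SLC30A1. They were picked by gene name from the 58735 genes of the expression table, and all 8 were found. RNA sequencing was performed on 12 libraries of 2 human ovarian granulosa cell tumor (GCT) lines, with 3 untreated and 3 treated libraries for each line. The lines are KGN, which the study describes as adult-type, and COV434, which it describes as juvenile-type. Treated cells received 77-39, an inhibitor of the mitochondrial deacetylase SIRT3, for 72 h at a dose that the labels write as 10 um/ml, a unit that leaves a molar and a mass concentration undistinguished. Every library is labelled as wild type and as granulosa cell tumor, and both lines were grown in medium with fetal bovine serum. The labels do not say whether the 3 libraries of a group came from separate cultures, so the p-values measure only the spread between these libraries.

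Metallothioneins are short proteins that hold zinc and copper through many cysteines and so keep free metal low. MTF1 is the zinc sensor of the nucleus: when free zinc rises, it binds metal response elements (MREs) in promoters and raises transcription of metallothionein genes and of SLC30A1. SLC30A1, also called ZnT1, carries zinc out through the plasma membrane. Metallothionein genes are also known to respond to copper, cadmium, oxidants and glucocorticoids, and the MT1 and MT2 genes lie in 1 cluster on chromosome 16.

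The marker genes FOXL2 and SMARCA2 went against the line labels, so KGN and COV434 stand throughout for libraries with that label. FOXL2, the granulosa cell factor whose mutation marks adult-type GCT and the KGN line, averaged 0.00581 and 0.00649 FPKM in untreated and treated libraries labelled KGN, but 12.4 and 13.5 FPKM in those labelled COV434. SMARCA2, a chromatin remodeling ATPase that COV434 is known to lack, averaged 0.00773 and 0.00517 FPKM in libraries labelled KGN and 5.65 and 5.03 FPKM in those labelled COV434. SMARCA4, a related ATPase, averaged 2.58 and 2.34 FPKM in KGN and 9.22 and 7.985 FPKM in COV434. FSHR, a defining receptor of granulosa cells, was listed at 0 in all 12 libraries. The granulosa cell markers INHBA, CYP19A1, NR5A1 and STAR averaged at most 0.1375 FPKM in any group. AMH and INHA, of the same markers, were expressed under both labels. AMH averaged 4.55 and 4.36 FPKM in KGN and 8.24 and 6.28 FPKM in COV434. INHA averaged 1.06 and 0.842 FPKM in KGN and 4.75 and 3.55 FPKM in COV434. PTPRC, PECAM1 and EPCAM, of leukocytes, endothelium and epithelium, averaged at most 0.348 FPKM in any group. Between 15547851 and 18280415 reads fell on genes in each library, and a gene of 1 kb with no read could have been present at up to 0.152 to 0.2 FPKM, the level of 3 reads (counting error only). SIRT3 itself did not pass the test in either line, with log2 fold changes of −0.07 (adjusted p = 0.475) in KGN and 0.15 (adjusted p = 0.929) in COV434. Mitochondrially encoded genes took between 7.3% and 8.81% of the reads in KGN and between 7.71% and 13.5% in COV434, with the highest share in treated library 1 of COV434.

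The 6 metallothionein members encode proteins of the same length. In GENCODE release 29, each main transcript has a coding sequence of 186 bases including the stop codon, that is 61 codons, of which 20 (32.8%) encode cysteine. For comparison, 21 of 753 codons (2.8%) encode cysteine in MTF1 and 18 of 507 (3.6%) in SLC30A1. The coding sequences of the 3 best expressed members are printed 5′ to 3′ with cysteine codons in capitals, because the metal-binding pattern and the near identity of the genes are both visible in them.
MT2A: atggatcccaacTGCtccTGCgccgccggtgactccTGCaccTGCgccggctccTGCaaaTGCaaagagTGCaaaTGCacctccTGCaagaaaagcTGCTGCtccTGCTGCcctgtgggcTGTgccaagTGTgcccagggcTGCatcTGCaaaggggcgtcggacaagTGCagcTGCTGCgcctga
MT1X: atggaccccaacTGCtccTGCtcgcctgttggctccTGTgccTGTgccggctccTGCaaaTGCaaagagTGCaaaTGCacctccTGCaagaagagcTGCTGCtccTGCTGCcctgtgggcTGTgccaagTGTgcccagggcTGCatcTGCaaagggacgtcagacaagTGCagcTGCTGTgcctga
MT1E: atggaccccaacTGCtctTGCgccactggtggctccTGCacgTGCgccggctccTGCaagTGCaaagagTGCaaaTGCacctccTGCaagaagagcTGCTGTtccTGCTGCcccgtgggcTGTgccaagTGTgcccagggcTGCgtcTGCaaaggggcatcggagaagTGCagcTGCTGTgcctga
All 20 cysteine codons stand in the same places in the printed genes. MT2A differed from MT1X at 14 and from MT1E at 14 of the 186 bases, and MT1X differed from MT1E at 17. Over all 15 pairs of the 6 members, identity ranged from 88.7% (MT1X and MT1F) to 95.2% (MT2A and MT1G).

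Because the genes are so alike, the reads of 1 member could in part be counted on another. Of all stretches of 50 bases in the main transcript, 4.9% in MT2A, 5.3% in MT1E and 3.6% in MT1F also occur in transcripts of other genes, against 45.1% in MT1X, 20.2% in MT1G and 7.1% in MT1M. No stretch of 100 bases was shared in MT2A, MT1E, MT1F, MT1G or MT1M, while 19.1% were shared in MT1X, whose transcript overlaps the noncoding gene AC026461.1. That gene was listed at 0 in every group. SLC30A1 shared no stretch of 50 bases and MTF1 shared 0.9%. Levels of MT1X are therefore less certain than those of the other expressed members, and how the counting assigned shared reads is not given in the sources used here.

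RefSeq promoters (GRCh38.p14, 250 bases before to 50 after the start) were found for 4 of the 8 members: MT2A, MT1X, MTF1 and SLC30A1. No promoter was matched for MT1E, MT1F, MT1G and MT1M. The MRE, to which MTF1 binds, was searched on both strands as TGCACNC or TGCGCNC. The antioxidant response element (ARE), bound by NRF2, was searched on both strands as TGACNNNGC. The 250 bases before the start are printed along the gene with MRE matches in capitals. They are given for the 2 metallothionein promoters and for SLC30A1, the known targets of MTF1 among the 4 genes with a promoter.
MT2A (chr16:56608334-56608583, + strand): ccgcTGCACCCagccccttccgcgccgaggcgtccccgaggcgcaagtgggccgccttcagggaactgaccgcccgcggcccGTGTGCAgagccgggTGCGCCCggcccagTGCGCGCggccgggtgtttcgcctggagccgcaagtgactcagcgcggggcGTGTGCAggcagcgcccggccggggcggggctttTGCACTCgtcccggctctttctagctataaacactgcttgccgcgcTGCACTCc
MT1X (chr16:56682220-56682469, + strand): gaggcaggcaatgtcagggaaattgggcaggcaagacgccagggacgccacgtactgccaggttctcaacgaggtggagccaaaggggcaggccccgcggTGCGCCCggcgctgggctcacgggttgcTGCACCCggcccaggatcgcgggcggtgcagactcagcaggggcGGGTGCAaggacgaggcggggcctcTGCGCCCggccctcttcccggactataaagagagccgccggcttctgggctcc
SLC30A1 (chr1:211579162-211579411, − strand): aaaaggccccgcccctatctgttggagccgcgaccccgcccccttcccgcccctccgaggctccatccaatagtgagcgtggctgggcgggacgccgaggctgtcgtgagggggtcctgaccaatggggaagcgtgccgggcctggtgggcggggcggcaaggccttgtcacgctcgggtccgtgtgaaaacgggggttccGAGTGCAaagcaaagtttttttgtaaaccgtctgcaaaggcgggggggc
MT2A held 7 MRE matches in this stretch, the nearest beginning 8 bases before the start, and 1 more beginning at base 31 after the start. MT1X held 4, beginning 150, 122, 78 and 53 bases before the start. SLC30A1 held 1, beginning 49 bases before the start and reading against the gene, and 1 more at base 25 after it. MTF1 held none. Among 35116 promoters of 300 bases, 29.6% held at least 1 MRE match, 8.6% at least 2, 0.6% at least 4 and 0.02% (7 promoters) at least 8. MT2A, MT1X and SLC30A1 each held 1 ARE match, MTF1 held 0, and none overlapped an MRE match. At least 1 ARE match was present in 13.3% of all promoters. A match is a string of letters, not evidence of binding.

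In the untreated lines, the level of the zinc sensor MTF1 did not differ beyond its spread, while the buffers and the exporter differed. Expression is given as FPKM, the reads on a gene scaled to gene length and library size. MTF1 (chromosome 1, 37809567 to 37859620, minus strand) was measured at 3.43, 3.66 and 3.43 FPKM in the untreated libraries labelled KGN and at 4.45, 2.81 and 3.29 FPKM in those labelled COV434. The ranges overlapped, and the log2 difference of KGN minus COV434 was 0.01 ± 0.139 (SE, adjusted p = 0.938, with a 95% interval of −0.32 to 0.35). Differences and fold changes tested with limma are on the scale of log2(FPKM + 1), which understates the change of low genes. Among the 8 genes, 5 were tested in this comparison and 4 of them differed, 3 higher in COV434 and 1 higher in KGN. MT1E, 1 of the 3, passed the filter only through COV434, and of the other 4 genes 3 differed. Of all 13098 genes tested between the untreated lines, 69% differed, 36.4% higher in COV434 and 32.6% higher in KGN, so 3 of 4 is a share near the background.

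MT2A (ENSG00000125148, chromosome 16, 56608199 to 56609497), the metallothionein found in most tissues, was the highest metallothionein by FPKM in both lines. It was measured at 19.3, 17.3 and 20.4 FPKM in the untreated KGN libraries, a mean of 19.0 ± 1.60 (SD, n = 3). In the untreated COV434 libraries it was 45.3, 113 and 97.4 FPKM, a mean of 85.3 ± 35.5 (SD, n = 3). The groups did not overlap, although library 1 of COV434 lay far under the other 2. The means differed 4.49-fold, and the log2 difference of KGN minus COV434 was −2.01 ± 0.33 (SE, adjusted p = 0.00152).

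MT1E (ENSG00000169715, chromosome 16, 56625475 to 56627112) separated the lines completely. It had 0 reads in all 6 libraries labelled KGN. In the untreated COV434 libraries it was measured at 11.9, 21.5 and 19.1 FPKM, from 208, 384 and 337 reads. Its mean of 17.5 ± 4.98 FPKM (SD, n = 3) was at least 340-fold higher than the 0.0516 FPKM that 3 reads over the 3 untreated KGN libraries would give. MT1E passed the filter on low values only through COV434, so a difference was fixed by its passing, and the fitted value for KGN minus COV434 was −4.17 ± 0.203 (SE, adjusted p = 3.4e-06). MT1F (ENSG00000198417, chromosome 16, 56657694 to 56660698) showed the same split at a far lower level. It had 0 reads in the KGN libraries and 5, 8 and 4 reads (0.160, 0.249 and 0.127 FPKM) in untreated COV434, at least 6.21-fold over its own 3-read limit, and it lay under the filter of 1 FPKM.

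MT1X (ENSG00000187193, chromosome 16, 56682424 to 56684196) went the other way. It was measured at 13.0, 11.3 and 13.0 FPKM in untreated KGN and at 0.749, 1.23 and 1.89 FPKM in untreated COV434. The COV434 mean of 1.29 ± 0.572 FPKM was 0.104 times the KGN mean of 12.4 ± 0.943 FPKM (SD, n = 3 each), and the log2 difference of KGN minus COV434 was 2.58 ± 0.183 (SE, adjusted p = 2.26e-05). The groups were far apart, with the lowest KGN library above the highest COV434 library. MT1G (chromosome 16, 56666731 to 56668065, minus strand) and MT1M (chromosome 16, 56632233 to 56633986) had 0 reads in all 12 libraries. Over the 3 libraries of a group, that allows levels of up to 0.0723 to 0.0812 FPKM for MT1G and 0.0576 to 0.0646 FPKM for MT1M.

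SLC30A1 (ENSG00000170385, chromosome 1, 211571568 to 211578742, minus strand), the exporter, was measured at 9.11, 9.87 and 10.6 FPKM in untreated KGN and at 61.8, 64.9 and 60.3 FPKM in untreated COV434. The means of 9.86 ± 0.738 and 62.3 ± 2.35 FPKM (SD, n = 3 each) differed 6.32-fold, and the log2 difference of KGN minus COV434 was −2.55 ± 0.0904 (SE, adjusted p = 8e-07). Replicates were tight in both groups and far from overlapping. Line and anything else that differed between the 2 sets of libraries cannot be told apart.

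**Figure D1:**
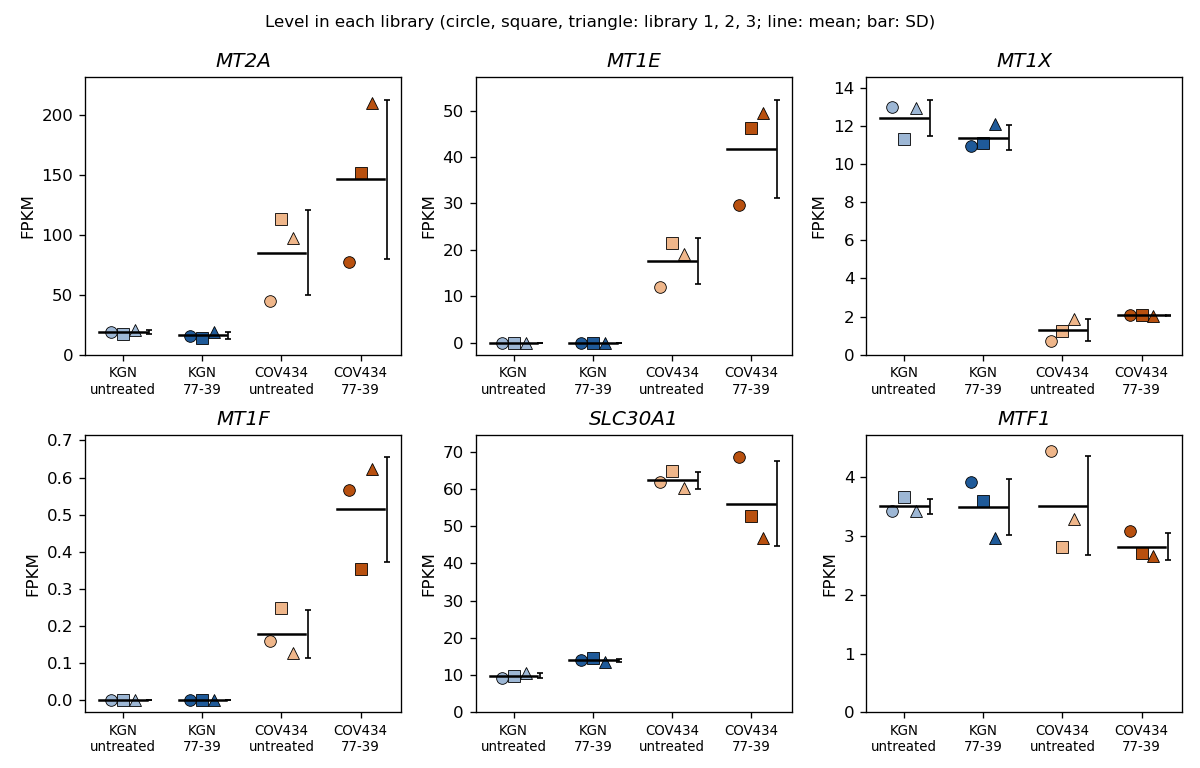
FPKM of the 6 members with reads in any library, by line label and treatment. Each point is 1 library, lines are means and bars are SD (n = 3). MT1E and MT1F are at 0 in all 6 libraries labelled KGN, MT1X is at least 10.9 FPKM there and at most 2.10 FPKM in COV434, and SLC30A1 is higher in the treated than in the untreated KGN libraries.

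The order of the genes depends on the length used. The table divides reads by the union of all annotated exons of a gene, which is 1299 bases for MT2A and 1773 for MT1X, while their main transcripts have 786 and 450 bases. Per kilobase of the main transcript, MT1X stood at 48.9 and MT2A at 31.4 in untreated KGN, the reverse of their FPKM order, and at 44.8 and 26.8 in treated KGN. In untreated COV434 the order per kilobase of main transcript was MT2A (141), SLC30A1 (62.3), MT1E (26.2), MT1X (5.08), MTF1 (3.54) and MT1F (0.489). By FPKM, MT1X (1.29) stood below MTF1 (3.52) in the same libraries. The ratio of 1 gene's FPKM between libraries does not depend on this choice, but the filter of 1 FPKM and log2(FPKM + 1) do.

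The metallothionein pool had a different make-up in the lines. Summed over the 6 members, FPKM was 31.4 ± 2.50 in untreated KGN and 104 ± 40.9 in untreated COV434 (SD, n = 3 each). MT2A made up 60.45% and MT1X 39.55% of that sum in KGN, with nothing from MT1E. In COV434, MT2A made up 81.07%, MT1E 17.48% and MT1X 1.26%. When all metallothionein genes and pseudogenes were summed into 1 row, the log2 difference of KGN minus COV434 was −1.56 ± 0.309 (SE, adjusted p = 0.00375). In bulk libraries such as these, fewer cells expressing a gene and less RNA per cell cannot be told apart.

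**Figure D2:**
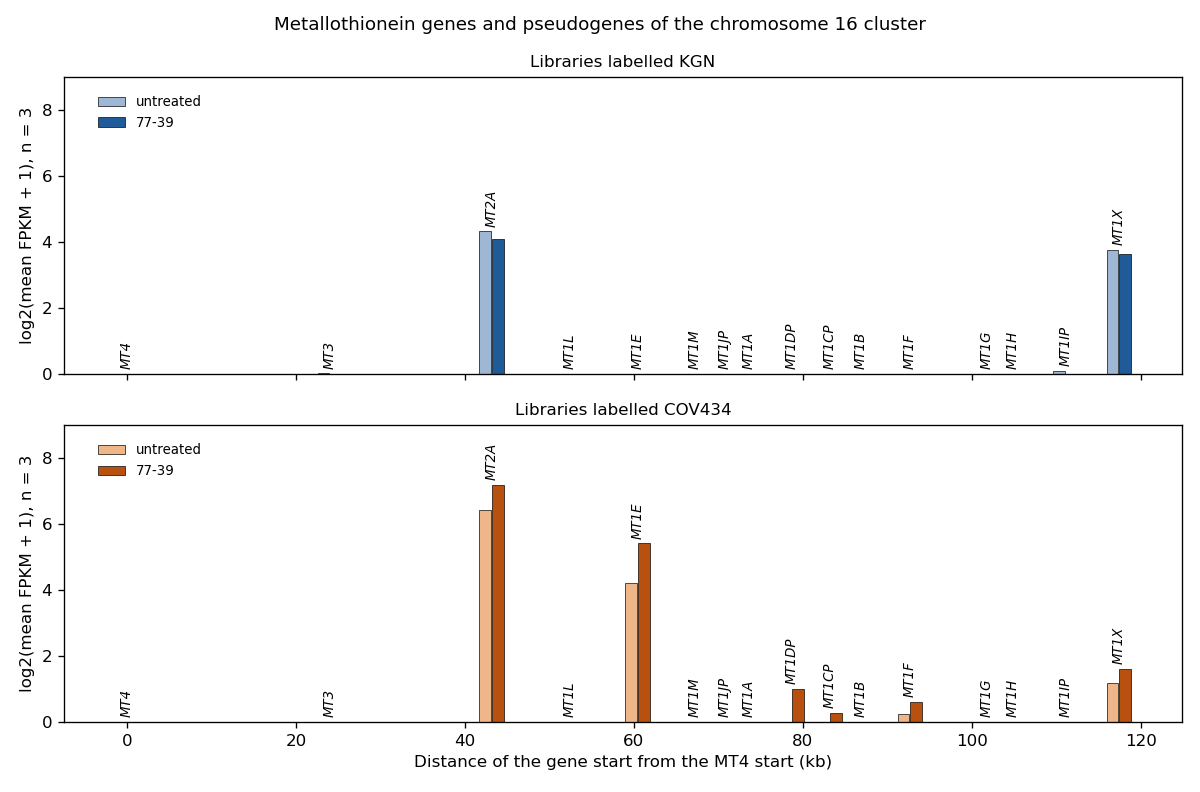
Mean level of each metallothionein gene and pseudogene of the chromosome 16 cluster as log2(mean FPKM + 1), against the distance of its start from the start of MT4 in kb. Upper panel: libraries labelled KGN; lower panel: libraries labelled COV434; light bars untreated and dark bars 77-39 treated (n = 3 each). The tall bars in KGN are MT2A and MT1X, and MT1E, between them, has a bar in COV434 alone.

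Along chromosome 16, the members with reads were neighbours of silent genes. MT2A starts 43.15 kb, MT1E 60.43 kb, MT1F 92.65 kb and MT1X 117.38 kb after the start of MT4. MT1A, MT1B, MT1H, MT1L, MT1JP and MT4 of the cluster were listed at 0 in all 12 libraries, as were MT1HL1 and MT1P3 on other chromosomes. Other metallothionein genes gave few reads, and none of the 15 that are not members reached the filter of 1 FPKM. The pseudogene MT1DP, between MT1E and MT1F, had 0 reads in every library except treated COV434 libraries 2 and 3, at 1.28 and 1.76 FPKM. MT1CP was above 0 only in treated COV434 library 3, at 0.643 FPKM. Reads were also found on the retrocopies MT1P1 (up to 2.66 FPKM), MT2P1 (up to 2.36 FPKM) and MT1XP1 (up to 1.61 FPKM), on MT1IP in 1 untreated KGN library (0.224 FPKM) and on MT3 in 1 untreated KGN library (0.0294 FPKM). MT1XP1 was above 0 in all 3 untreated KGN libraries and in none of untreated COV434. MT1XP1 shares stretches of 50 bases with MT1X and with MT2A.

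With 77-39, the exporter was the member that changed in KGN. SLC30A1 was significantly upregulated, from 9.11, 9.87 and 10.6 FPKM to 14.0, 14.5 and 13.6 FPKM. All 3 treated libraries lay above all 3 untreated libraries. The means of 9.86 ± 0.738 and 14.0 ± 0.444 FPKM (SD, n = 3 each) differed 1.42-fold, with a log2 fold change of 0.47 ± 0.0602 (SE, adjusted p = 0.00197). The call rested on 923 to 1398 reads per library and was kept in all 16 alternative analyses run for it, with log2 fold changes between 0.42 and 0.52. Of the 8 members, 4 were tested in KGN, and 1 was upregulated and 0 downregulated. Among all 12671 genes tested in KGN, 17.6% were upregulated, 16.4% downregulated and 34% changed in either direction, so 1 of 4 is a share near the background.

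The metallothioneins of the KGN libraries did not pass the test. MT2A was measured at 15.9, 13.7 and 19.1 FPKM with 77-39, a mean of 16.2 ± 2.73 (SD, n = 3) against 19.0 ± 1.60 without. The groups overlapped, and the log2 fold change was −0.22 ± 0.118 (SE, adjusted p = 0.188, with a 95% interval of −0.50 to 0.06). Single treated libraries moved this value either way, to −0.34 (adjusted p = 0.0392) without treated library 3 and to −0.11 (adjusted p = 0.467) without treated library 2. MT1X was measured at 10.9, 11.1 and 12.1 FPKM with 77-39, which overlapped the untreated libraries, and its log2 fold change was −0.11 ± 0.0672 (SE, adjusted p = 0.228). MTF1 was measured at 3.91, 3.59 and 2.97 FPKM with 77-39, and its log2 fold change was −0.01 ± 0.0854 (SE, adjusted p = 0.937). The summed FPKM of the 6 metallothionein members was 31.4 ± 2.50 without and 27.6 ± 3.30 with 77-39 (SD, n = 3 each). The row of all summed metallothionein genes had a log2 fold change of −0.15 ± 0.105 (SE, adjusted p = 0.304).

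In the libraries labelled COV434, all 4 expressed metallothioneins had higher means with 77-39. MT1F lay under the filter of 1 FPKM and was not tested, and none of the others passed the test after adjustment. MT1E was measured at 11.9, 21.5 and 19.1 FPKM without and 29.6, 46.2 and 49.4 FPKM with 77-39. The groups did not overlap, and the means of 17.5 ± 4.98 and 41.7 ± 10.7 FPKM (SD, n = 3 each) differed 2.38-fold. The log2 fold change was 1.21 ± 0.266 (SE, unadjusted p = 0.00176, adjusted p = 0.191). Of the 5 members tested in COV434, 0 had an adjusted p under 0.05 in limma and 1 (MT1E) had an unadjusted p under 0.05. Among all 12060 genes tested in COV434, 0.0415% passed after adjustment and 8% before it, 3.52% higher and 4.49% lower. Voom on the reads recovered from FPKM also called 0 of the 5 members.

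In COV434, but not in KGN, untreated and treated libraries of the same number deviated together from their group means. Same-numbered pairs of COV434 correlated at 0.4, 0.474 and 0.166, and its other pairs at −0.469 to 0.154. Untreated library 3 matched treated library 2 (0.154) about as well as treated library 3 (0.166). The pairing was inferred from these same libraries. With the number as a replicate block, MT1E passed in COV434 with the same log2 fold change of 1.21 ± 0.108 (SE, adjusted p = 0.0257). In that fit 0.721% of all genes passed, and 0.323% were upregulated. Treated over untreated FPKM of MT1E was 2.48, 2.15 and 2.58 in libraries 1, 2 and 3. Over 15 alternative analyses, its adjusted p ranged from 0.00917 to 0.592 and was under 0.05 in 3.

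MT2A followed MT1E in COV434 with a wider spread. It was measured at 45.3, 113 and 97.4 FPKM without and at 77.7, 152 and 210 FPKM with 77-39. The groups overlapped, because treated library 1 lay below 2 of the untreated libraries, but within each number the treated library was higher, by 1.72, 1.34 and 2.16 times. The means were 85.3 ± 35.5 and 147 ± 66.3 FPKM (SD, n = 3 each). The log2 fold change of MT2A was 0.76 ± 0.43 (SE, adjusted p = 0.762), and with the replicate block the adjusted p was 0.0861. Treated library 1, in which mitochondrially encoded genes took 13.5% of reads against 8.74% and 7.71% in the other 2 treated libraries, was the lowest of its group for both MT2A and MT1E. Without it the log2 fold changes were 1.16 for MT2A (adjusted p = 0.393) and 1.44 for MT1E (adjusted p = 0.175). The value of MT2A also moved with other libraries, to 0.36 without untreated library 1 (adjusted p = 0.776) and 0.45 without treated library 3 (adjusted p = 0.958), while that of MT1E was at least 0.97 whichever library was left out. What part the mitochondrial share has in these levels was not tested.

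The low metallothioneins of COV434 showed the same sign. MT1X was measured at 0.749, 1.23 and 1.89 FPKM without and at 2.07, 2.10 and 2.05 FPKM with 77-39, from 22 to 56 and 55 to 65 reads. The groups did not overlap, but the log2 fold change of 0.46 ± 0.204 (SE, adjusted p = 0.64) did not pass, and the ratio within numbers went from 2.77 in library 1 to 1.09 in library 3. Its log2 fold change was 0.28 without untreated library 1 (adjusted p = 0.673), 0.73 with a pseudocount of 0.1 (adjusted p = 0.663) and 0.79 with voom (adjusted p = 0.67). MT1F had 5, 8 and 4 reads without and 16, 11 and 21 reads with 77-39. Its pooled reads of 17 and 48 gave a treated over untreated ratio of 2.88 after scaling by library size, with an exact 95% interval of 1.63 to 5.35 that covers counting error only and compares these libraries, not the conditions. The summed FPKM of the 6 metallothionein members was 104 ± 40.9 without and 191 ± 76.6 with 77-39 (SD, n = 3 each). The row of all summed metallothionein genes had a log2 fold change of 0.87 ± 0.393 (SE, adjusted p = 0.647). MT1E made up 17.48% of the members' sum without and 22.94% with 77-39, while MT2A made up 81.07% and 75.51%.

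The exporter and the sensor of COV434 did not pass the test. SLC30A1 was measured at 61.8, 64.9 and 60.3 FPKM without and at 68.7, 52.7 and 46.7 FPKM with 77-39. The treated libraries lay on both sides of the untreated ones, and the log2 fold change was −0.17 ± 0.177 (SE, adjusted p = 0.915, with a 95% interval of −0.58 to 0.24). It was −0.32 without treated library 1 (adjusted p = 0.548) and −0.050 without treated library 3 (adjusted p = 0.997). MTF1 was measured at 4.45, 2.81 and 3.29 FPKM without and at 3.09, 2.72 and 2.66 FPKM with 77-39, with a log2 fold change of −0.23 ± 0.173 (SE, adjusted p = 0.849).

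**Figure D3:**
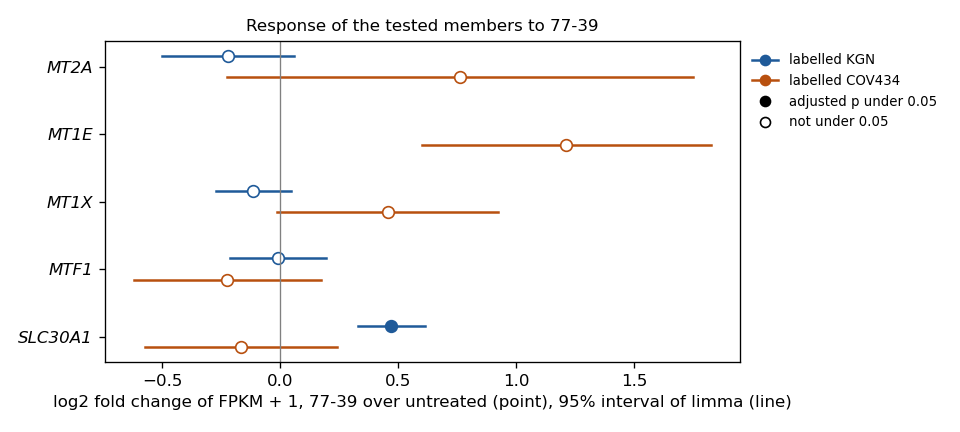
log2 fold change of FPKM + 1 with 77-39 for the members tested in each line, fitted with limma. Points are estimates, lines are 95% intervals, and filled points have an adjusted p under 0.05. SLC30A1 in KGN (0.47) is the filled point; MT1E, MT2A and MT1X of COV434 (1.21, 0.76 and 0.46) are open.

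Whether the lines responded differently was tested as an interaction over all 12 libraries. Of 5 members tested, 0 had an adjusted p under 0.05 in limma and 3 had an unadjusted p under 0.05, namely MT1E, SLC30A1 and MT1X. Over all 13127 genes tested, these shares were 3.6% and 18%. Voom on recovered reads also called 0 of the 5. The log2 fold change of KGN minus that of COV434 was 0.64 ± 0.177 for SLC30A1 (SE, adjusted p = 0.0787), −0.98 ± 0.52 for MT2A (SE, adjusted p = 0.36), −0.57 ± 0.208 for MT1X (SE, adjusted p = 0.171) and 0.22 ± 0.182 for MTF1 (SE, adjusted p = 0.599). For MT1E it was −1.21 ± 0.297 (SE, adjusted p = 0.0500431), which restates the change of COV434, since the gene had no reads in KGN. With a replicate block in both lines, MT1E (adjusted p = 0.00701) and MT2A (adjusted p = 0.0335) passed, in a fit where 4.28% of all genes did. That block also paired the KGN libraries, although same-numbered KGN libraries did not deviate together. Without treated COV434 library 1, MT1E (adjusted p = 0.0122) and SLC30A1 (adjusted p = 0.00847) passed. Without untreated COV434 library 1, the value for MT2A was −0.59 (adjusted p = 0.444), and with voom that for MT1X was −0.91 (adjusted p = 0.191). A different response of the exporter and of the metallothioneins in the 2 lines was thus not detected in this test, and depended on the handling of the COV434 libraries.

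The other zinc transporters were read next to the members. Most transporters of the SLC30 family lower zinc in the cytoplasm by moving it out or into organelles, and the SLC39 family brings it in. In KGN, 5 of 9 other exporters were tested, and 4 were upregulated and 0 downregulated, with a median log2 fold change of 0.30 against 0.01 for all genes tested. They were SLC30A6 (0.30, adjusted p = 0.00558) and SLC30A7 (0.52, adjusted p = 0.00861), which load the secretory pathway, SLC30A9 (0.19, adjusted p = 0.0103), a mitochondrial transporter, and SLC30A4 (0.35, adjusted p = 0.0186), of endosomal vesicles. SLC30A10 was listed at 0 in all 12 libraries. Of 14 importers, 9 were tested in KGN, and 5 were upregulated and 0 downregulated, with a median log2 fold change of 0.22. The plasma membrane importer SLC39A14 rose by 0.50 on the log2 scale (adjusted p = 0.000903), followed by SLC39A9 (0.34, adjusted p = 0.00814), SLC39A6 (0.22, adjusted p = 0.00881) and SLC39A11 (0.31, adjusted p = 0.012). Against 17.6% of all genes upregulated in KGN, these were 4 of 5 and 5 of 9, on lists chosen with results of these data known.

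In COV434, 4 other exporters and 11 importers were tested and 0 passed in limma, with 0 exporters and 1 importer under an unadjusted p of 0.05. Among all genes tested in COV434, 0.0415% passed and 8% had an unadjusted p under 0.05. The median log2 fold change was −0.01 for the exporters and −0.07 for the importers, against −0.02 for all genes tested. The 2 most abundant tested genes of each list had log2 fold changes of −0.0047 for SLC30A5, 0.02 for SLC30A6, −0.07 for SLC39A7 and −0.06 for SLC39A14. In the interaction, 0 of 5 exporters and 0 of 10 importers passed, and 1 and 2 had an unadjusted p under 0.05. Over all genes tested there, 3.6% passed and 18% had an unadjusted p under 0.05. In untreated cells, 3 of 5 exporters were higher in KGN, the opposite side from SLC30A1. Of 10 importers tested, 4 were higher in KGN and 4 in COV434. Among all genes tested in this comparison, 69% differed, 32.6% higher in KGN and 36.4% higher in COV434. SLC39A8, a zinc importer counted here, had 0.0899 FPKM in untreated KGN and 13.5 FPKM in untreated COV434. It passed the filter on low values only through COV434. The exporter SLC30A4, at 3.54 FPKM in untreated KGN and 0.986 FPKM in untreated COV434, passed only through KGN. A difference of these genes was thus fixed by their passing.

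**Figure D4:**
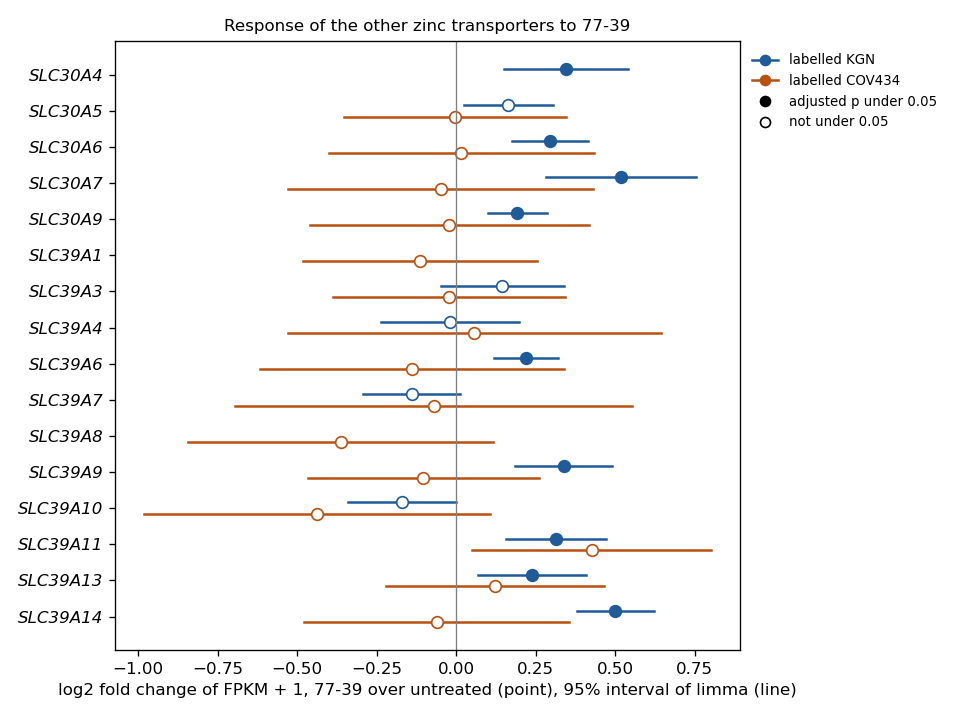
log2 fold change of FPKM + 1 with 77-39 for the other zinc exporters (SLC30) and importers (SLC39) tested in either line, fitted with limma. Points are estimates, lines are 95% intervals, and filled points have an adjusted p under 0.05. In KGN, 9 of 14 tested transporters are filled and all 9 lie above 0; in COV434 none of 15 is filled.

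Other inducers of metallothionein genes were read from 3 lists. Of 8 genes tested in KGN from the copper list, which also holds MTF2, 1 was upregulated and 1 downregulated, against 17.6% and 16.4% of all genes. SLC31A1, the copper importer of the plasma membrane, went from 12.7 to 20.9 FPKM (log2 fold change 0.68, adjusted p = 0.00038), and MTF2, a Polycomb cofactor named for metal response elements, fell by 0.26 on the log2 scale (adjusted p = 0.0113). In COV434, 7 were tested and 0 passed in limma, with 0 under an unadjusted p of 0.05, against 0.0415% and 8% of all genes. SLC31A1 was 1 of the genes whose response differed between the lines, with an interaction of 0.78 (adjusted p = 0.0251).

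Of 11 genes of metal and oxidant stress, 5 were upregulated and 0 downregulated in KGN, against 17.6% and 16.4% of all genes, with a median log2 fold change of 0.14. HMOX1, the heme oxygenase that cadmium and oxidants induce, was measured at 16.4, 16.7 and 15.2 FPKM without and at 104, 101 and 107 FPKM with 77-39, a log2 fold change of 2.62 ± 0.0498 (SE, adjusted p = 3.48e-06). SLC7A11 (0.89, adjusted p = 0.00022), the cystine importer, GCLM (0.51, adjusted p = 0.00127), of glutathione synthesis, and TXNRD1 (0.31, adjusted p = 0.00243), thioredoxin reductase, were also upregulated. In COV434, 0 of 11 passed after adjustment, 6 were higher and 0 lower at an unadjusted p under 0.05, against 3.52% and 4.49% of all genes, and the median log2 fold change was 0.47. The heat shock chaperones HSPA1A and HSPA1B, which metals also induce, had log2 fold changes of 1.57 and 1.45 in COV434 (adjusted p = 0.0769 each) and of −0.26 and −0.15 in KGN (adjusted p = 0.0599 and 0.179). Their response differed between the lines, with interactions of −1.84 (adjusted p = 0.00786) and −1.60 (adjusted p = 0.00567). The interaction of HMOX1 had the other sign (2.01, adjusted p = 0.000836), and that of NQO1, a quinone reductase, was −0.77 (adjusted p = 0.0247). In COV434 the mean of HMOX1 was also higher with 77-39, at 4.68 FPKM without and 7.86 FPKM with it. There GCLM averaged 8.70 and 12.4 FPKM, and NQO1 164 and 265 FPKM. Of the 11 genes, 1 had a positive and 4 a negative interaction after adjustment, while 3.6% of all genes passed in either direction.

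Of the glucocorticoid genes, 7 were tested in KGN, where 0 were upregulated and 3 downregulated (17.6% and 16.4% of all genes), namely KLF9 (−0.47, adjusted p = 0.00128), FKBP5 (−0.31, adjusted p = 0.0049) and PER1 (−0.32, adjusted p = 0.0121). Among 8 tested in COV434, 0 passed after adjustment, and 5 were lower and 0 higher at an unadjusted p under 0.05 (4.49% and 3.52% of all genes), with a median log2 fold change of −0.45. The most abundant were DUSP1, at 236 FPKM without and 151 FPKM with 77-39, and TSC22D3, at 114 and 78.7 FPKM. In the same libraries the means of MT1E and MT2A were higher with 77-39, and none of these 4 genes passed the adjusted test. What part glucocorticoids have in these levels was not tested. The response of DUSP1 and SGK1 differed between the lines (interactions of 0.84, adjusted p = 0.00445, and 0.66, adjusted p = 0.0345).

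The genes closest in pattern to the members were found by the root mean square difference of log2(FPKM + 1), centred on its mean over the 12 libraries, among 13127 genes. Nearest to the summed metallothionein members were HLA-B (0.133), B2M (0.18), MT2A itself (0.193), HLA-C (0.202) and the ribosomal pseudogene RPL12P14 (0.226). MT2A made up 58.57% to 81.07% of that sum by group, so its nearness was largely fixed in advance. HLA-B, a heavy chain of MHC class I, averaged 64.0, 62.8, 252 and 398 FPKM in untreated KGN, treated KGN, untreated COV434 and treated COV434. B2M, the light chain, averaged 93.2, 91.6, 357 and 508 FPKM in the same order. Nearest to SLC30A1 were RAB31 (0.117), ACSL4 (0.127), ITPRID2 (0.138), FAM102A (0.165) and YAP1 (0.167). RAB31 averaged 4.41, 6.84, 33.6 and 27.0 FPKM in the order above. These distances describe these 12 libraries alone and include the difference between the lines, in which 69% of the genes tested untreated differed.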

How the data were processed

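RNA of 12 libraries was extracted with TRIzol, prepared with a TruSeq kit and sequenced by a provider on an Illumina NovaSeq instrument. The authors deposited FPKM per gene with a gene length in bases. The submitters' processing notes name HISAT2 2.0.5 and mouse builds, although the genes are human and their coordinates are those of GENCODE release 29 on GRCh38. Their extraction protocol names retinas, although the samples are cell lines, and the treatment protocol of the untreated libraries also gives the dose. The counter is not given in the sources used here, and neither is its handling of strand or of reads shared by similar genes. FPKM multiplied by gene length gave whole reads for 100% of values within 0.05, which gave the depth per library and the reads used by voom. The library total that the FPKM imply was above the reads on genes in every KGN library and below them in every COV434 library. In untreated library 1 these were 18540179 and 16803402 for KGN, and 16572406 and 17701495 for COV434. Differences between the lines thus depend on the total used, while voom used the reads on genes.

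Groups followed the sample titles. Each line was fitted alone with limma 3.58.1 (lmFit, and eBayes with a trend) in R 4.3.3 on log2(FPKM + 1). Genes entered a fit when their mean over its libraries was 1 FPKM or more. The p-values are two-sided and were adjusted by Benjamini-Hochberg over all genes of the fit, and a gene was called at an adjusted p under 0.05. The response was compared between the lines as the interaction over 12 libraries, and the untreated lines directly. The methods were tested on simulated data. Sequences were counted and figures drawn with Python 3.11.15, numpy 2.4.6 and matplotlib 3.10.9.

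Members and gene lists were chosen with earlier results of these data known. Named are all members, in each list up to 4 called genes with the smallest p (or the 2 most abundant), each other metallothionein gene above 0, and the 5 genes nearest in pattern. Deviations from the group means were compared across genes between same-numbered untreated and treated libraries. They correlated at 0.4, 0.474 and 0.166 in COV434 and at −0.0164, −0.018 and −0.019 in KGN. The numbers of the titles were therefore taken to pair the libraries in COV434 alone, but the block of the interaction fit paired both lines. The blocked values stand beside the results they change. The settings changed in turn were the pseudocount (0.1), the filter (0.1 FPKM, or none), median-ratio and quantile scaling, voom on recovered reads, all metallothionein genes as 1 row, removal of a trend with gene length (lowess, span 0.3), the replicate block, 1 fit of all 12 libraries, unadjusted p, and each library left out in turn.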

Additional observations from a re-analysis of the deposited data

How the results depend on the processing

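Of the members tested in KGN, 1 passed; leaving out 1 library gave 1 to 2, and the second was MT2A without treated library 3. In COV434, 0 members passed, and leaving out 1 library gave 0 each time, but the count was 1 (MT1E) with the replicate block, with the length trend removed together with the block, in 1 fit of all 12 libraries and at an unadjusted p under 0.05. In the interaction, 0 passed, against 1 with median-ratio scaling and 1 with quantile normalization. The count was 2 with the replicate block in both lines, and 2 with the length trend removed together with that block. Leaving out 1 library gave 0 to 2 there: 1 without untreated COV434 library 1 or 2 (MT1E), 1 without untreated COV434 library 3 (MT1X), and 2 without treated COV434 library 1 (MT1E and SLC30A1). Between the untreated lines, 4 passed, against 5 of 6 tested without a filter on low values, where MT1F was added, and 2 when all metallothionein genes formed 1 row, because only 3 rows were then tested. The block changed no other call of a member, and pairing was not tested between the lines. The sign changed for MTF1 alone, which never passed. Its log2 fold change in KGN was −0.01 and ranged from −0.078 to 0.076 when 1 library was left out. Its difference between the untreated lines was 0.01, against −0.0048 with quantile normalization and −0.031 with the length trend removed. That difference was −0.10 to 0.16 when 1 library was left out and 0.23 with voom (adjusted p = 0.247). Over all genes, the number called was 4307 in KGN, against 1015 in 1 fit of all 12 libraries and 2751 (21.7%, without treated library 2) to 4128 when 1 library was left out. In COV434 it was 5, against 25 with voom, 87 with the block, 480 in 1 fit of all 12 libraries, and 1 to 7 when 1 library was left out. In the interaction it was 472, against 264 with voom and 126 to 975 when 1 library was left out. MT1F, at 4 to 21 reads per COV434 library, was tested only with lower filters: its adjusted p was 0.597 in COV434 and 0.149 in the interaction with a filter of 0.1 FPKM, and 0.593, 0.115 and, between the untreated lines, 0.00751 without a filter. MT1G and MT1M had 0 reads.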
